A study of Mus musculus with 12 samples.

Results

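The normal mouse colon holds resident macrophages (RM) beside dendritic cells (DC) that carry CD11b, and these CD11b+ DC (2 arrays) were compared with RM (3 arrays). These are the samples labelled *Runx3* +/+ (WT) among the 12 of the series, which asked how loss of *Runx3* alters these cells. Both cell types were sorted from freshly digested cecum as CD45+CD11c+MHCII+CD11b+Ly6c- cells, F4/80+ for RM and F4/80- for CD11b+ DC. The paper states that the CD11b+ DC samples held CD103- and CD103+ cells together. The share of each in these samples is not given, so values of CD11b+ DC are those of the mix. Each sample pooled 3 to 4 mice of both sexes by its label, aged 6 to 8 weeks and on a C57Bl/6 background by the methods. RM replicates 1, 2 and 3 were labelled as litter mates 1, 2 and 3, and CD11b+ DC replicates 1 and 2 as litter mates 2 and 3. Whether the WT mice carried the floxed allele or the Cre transgene is not given in the sources used here. The same cell types from mice with floxed *Runx3* alleles and Cre driven by the *Itgax* (CD11c) promoter, labelled *Runx3* -/- and called Runx3-cKO (4 RM and 3 CD11b+ DC samples), served as a second comparison. Their levels do not enter the WT differences, but their spread enters the p-values of the WT comparison. Replicates named below without that term are WT.

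RM of the gut lie in the lamina propria, are renewed from blood monocytes, stay in place, and are known for engulfing bacteria and dying cells and for making IL-10. CD11b+ DC of the gut are conventional DC that grow from a Flt3-dependent precursor, depend on IRF4, carry antigen to the draining lymph nodes by way of the chemokine receptor CCR7, and instruct T cells there. Both carry MHC class II, CD11c and CD11b, which is why F4/80 and further markers are used to separate them.

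A level here is a log2 intensity (RMA, a method that combines the probes of a row on a log2 scale), listed in the order of replicates 1, 2 and 3 of RM and 1 and 2 of CD11b+ DC. A difference is RM minus CD11b+ DC on the log2 scale ± its SE, with a p adjusted over all 35556 rows, and a gene is called higher in one cell type only where that p was under 0.05. Levels of different genes come from different probes and were not set against each other. In sorted bulk samples a smaller number of cells of one kind and less RNA per cell cannot be told apart. Over the 5 arrays the levels ran from 2.14 to 13.89, with array medians of 5.33 to 5.45. A fold is a ratio of intensities, and none is given for a gene whose lower group mean lay under 5.33, where only levels and log2 differences are given. Pearson correlations over all rows were 0.979 to 0.988 among RM samples, 0.989 between the CD11b+ DC samples and 0.972 to 0.977 between the cell types.

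Several WT samples went against their label of pooled sexes, or stood apart, in genes chosen after their values were seen. *Xist*, the RNA of the inactive X chromosome, was at 10.49, 11.13 and 4.62 in RM and 10.95 and 4.54 in CD11b+ DC, and the Y-linked *Uty* at 3.03, 6.50 and 7.92 and 6.16 and 8.34. RM replicate 3 and CD11b+ DC replicate 2, both of litter 3, thus had the low *Xist* level, and RM replicate 1 had the low *Uty* level. The MHC class II gene *H2-Ea*, whose transcript C57BL/6 mice are known to lack, was at 7.79, 4.14 and 4.30 in RM and 4.20 and 4.36 in CD11b+ DC, and *Gdpd3*, a lysophospholipase gene, at 9.72, 4.47 and 4.62 and 4.03 and 4.38. Both genes were high only in RM replicate 1 among the WT samples, and among the Runx3-cKO samples only in replicate 1 of each cell type (9.08 and 9.84 for *H2-Ea*, 9.60 and 8.64 for *Gdpd3*), which also carry the number 1. RM replicate 1 had 50 genes more than 1 log2 unit above the other 4 WT samples, against 4 to 12 genes in each of those. Since no WT CD11b+ DC sample came from litter 1, named genes whose call changed without RM replicate 1 are given with that value where they are described. List counts are given with it only in part, and counts of other lists changed too. In RM, those of macrophage surface genes went from 16 to 18 and of scavenger receptors from 5 to 7. In CD11b+ DC, that of T cell costimulators and inhibitors went from 4 to 3.

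Of 35556 rows, 2160 differed between WT RM and WT CD11b+ DC (6.07% of all rows), 1085 higher in RM and 1075 higher in CD11b+ DC. Counted over the 19938 genes with 1 symbol, 851 were higher in RM (4.27%) and 833 in CD11b+ DC (4.18%). These shares are the background for the counts of gene lists below, some of which lie near them. Of the called genes, 392 were at least 2-fold higher in RM and 352 in CD11b+ DC, and 76 and 72 were at least 4-fold higher. At 8-fold the CD11b+ DC had more, with 15 genes against 9. These counts include genes whose lower group mean lay under 5.33, such as *C6* on the RM side and *Klri2*, *Vmn2r90* and *Cd209c* on the CD11b+ DC side. All 1684 called genes had groups that did not overlap, as did 37.0% of all genes. The median difference was 0.01 over all genes. The number of called rows was 1036 without CD11b+ DC replicate 1, 1020 without CD11b+ DC replicate 2 and 1354 without RM replicate 3, and 2611 without RM replicate 1. The split between the cell types moved too, with 428 rows higher in RM and 592 in CD11b+ DC without CD11b+ DC replicate 2 and 1293 and 1060 with the litter as a block. Leaving out 1 Runx3-cKO sample gave 1844 to 2392 rows. A fit of the 5 WT samples alone called 883, and the genes described below whose call was lost there are named with that p.

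**Figure D1:**
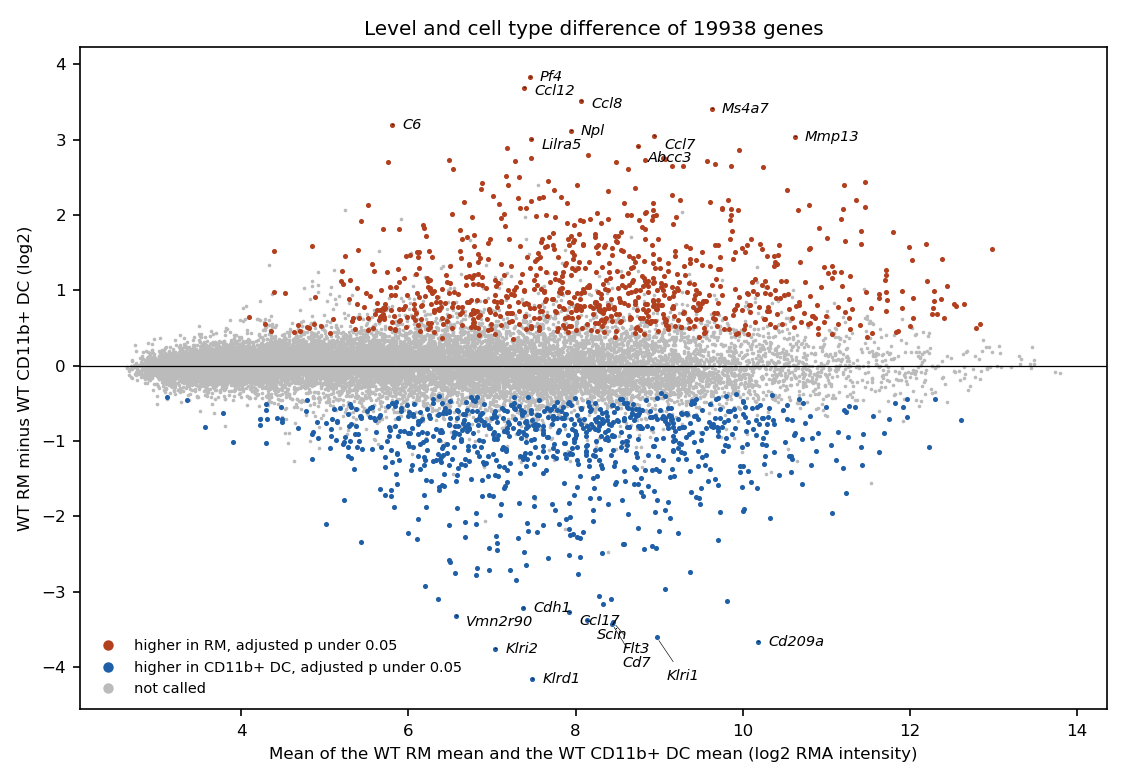
Each point is 1 of 19938 genes, with the mean of the WT RM and WT CD11b+ DC group means on the x axis (log2 RMA intensity) and the WT RM minus WT CD11b+ DC difference (log2) on the y axis. Red and blue points are the 851 and 833 genes with an adjusted p under 0.05. The largest differences lie at middle levels, from *Pf4* at 3.83 on the RM side to *Klrd1* at -4.16 on the CD11b+ DC side.

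The genes with the largest excess in RM were chemokines, a terminal complement component and enzymes. *Pf4*, the chemokine CXCL4 best known from platelets, was at 8.61, 9.93 and 9.56 in RM and 5.67 and 5.41 in CD11b+ DC (14.2-fold higher in RM, log2 difference 3.83 ± 0.31, adjusted p = 6.34e-05). *Ccl12*, a ligand of the monocyte receptor CCR2, was at 8.85, 9.25 and 9.58 in RM and 5.41 and 5.68 in CD11b+ DC (12.9-fold, log2 difference 3.69 ± 0.28, adjusted p = 4.87e-05). *Ms4a7*, a four-pass membrane protein gene of tissue macrophages, was at 10.76, 11.72 and 11.54 in RM and 7.997 and 7.86 in CD11b+ DC (10.6-fold, log2 difference 3.41 ± 0.24, adjusted p = 3.49e-05). All 3 were high in every RM sample and low in both CD11b+ DC samples, with a gap of more than 2 log2 units between the groups. *C6*, a component of the complement attack complex, was at 7.53, 7.22 and 7.46 in RM and 4.41 and 4.01 in CD11b+ DC (log2 difference 3.19 ± 0.18, adjusted p = 1.39e-05), and *Npl*, an enzyme that breaks down sialic acid, 8.67-fold (log2 difference 3.12 ± 0.23, adjusted p = 4.18e-05). *Abcc3*, an export pump for organic anions, had the smallest SE of the 15 largest, at 10.15, 10.17 and 10.27 in RM and 7.26 and 7.32 in CD11b+ DC (7.51-fold, log2 difference 2.91 ± 0.16, adjusted p = 1.34e-05). The others were the chemokines *Ccl8* and *Ccl7*, the collagenase gene *Mmp13*, the activating receptor gene *Lilra5*, the carbonyl reductase gene *Cbr2*, *Il10*, the scavenger receptor gene *Stab1*, *Dmxl2*, whose product acts on the vesicle proton pump, and the secreted glycoprotein gene *Olfml3*, with log2 differences of 2.75 to 3.51. *Ccl7*, *Ccl8* and *Ccl12* are close relatives whose transcripts can share probes, so their separate values are uncertain. *Cbr2* did not pass without CD11b+ DC replicate 2 (adjusted p = 0.0634). *Ccl8*, *Ccl7* and *Cbr2* were not called with the 5 WT samples alone (adjusted p = 0.0527, 0.0592 and 0.0850).

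The genes with the largest excess in CD11b+ DC were lectin-like receptors of the kind first known from NK cells, DC-SIGN relatives and the growth factor receptor gene *Flt3*. *Klrd1*, which encodes CD94, was at 5.77, 5.34 and 5.10 in RM and 9.36 and 9.76 in CD11b+ DC (17.8-fold higher in CD11b+ DC, log2 difference -4.16 ± 0.34, adjusted p = 6.45e-05), the largest difference of all named genes. *Cd209a*, a DC-SIGN homologue that binds sugars of microbes, was at 8.60, 8.48 and 7.98 in RM and 12.02 and 12.005 in CD11b+ DC (12.6-fold, log2 difference -3.66 ± 0.46, adjusted p = 7.42e-04). *Flt3*, the receptor that drives DC growth, was at 7.07, 6.51 and 6.67 in RM and 10.09 and 10.21 in CD11b+ DC (10.6-fold, log2 difference -3.40 ± 0.20, adjusted p = 1.39e-05). In these genes both CD11b+ DC samples lay more than 3 log2 units above every RM sample. *Cd7*, an immunoglobulin-like receptor gene of lymphocytes and some myeloid precursors, was 10.7-fold higher (log2 difference -3.42 ± 0.26, adjusted p = 4.87e-05), and the actin-severing gene *Scin* 10.4-fold (log2 difference -3.37 ± 0.37, adjusted p = 3.40e-04). *Itgae*, the CD103 chain that pairs with integrin β7 to bind E-cadherin, was at 7.12, 6.75 and 6.77 in RM and 9.88 and 10.07 in CD11b+ DC (8.56-fold, log2 difference -3.10 ± 0.19, adjusted p = 1.39e-05). *Cdh1*, which encodes that ligand, E-cadherin, was also higher in CD11b+ DC, at 6.01, 5.59 and 5.69 in RM and 8.93 and 9.03 in CD11b+ DC (9.28-fold, log2 difference -3.21 ± 0.15, adjusted p = 4.21e-06). The rest were *Klri1* and *Klri2*, *Ccl17*, the lysolipid transporter gene *Mfsd2a*, *Plet1*, *Cd209c*, *Ifitm6* and the row named *Vmn2r90*, with differences of -3.75 to -3.06. The *Klri*, *Cd209* and *Vmn2r* genes belong to families of near relatives that can share probes, so single members are uncertain. *Klri1* did not pass without CD11b+ DC replicate 2 (adjusted p = 0.0511).

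Since these genes moved together by cell type, the 250 bases before their start sites were read from the RefSeq tables of build GRCm38.p6, which held windows for 12 of the 15 RM genes (13 windows) and 10 of the 15 CD11b+ DC genes (10 windows). The motifs searched on both strands were TTCCTC for PU.1-type Ets factors, TGANTCA for AP-1, TGCTGA for the short site of Maf factors, TGTGGT for Runx factors and CANNTG for E-boxes. A TGANTCA and a TGCTGA match can share the letters TGA. TTCCTC occurred in 46.2% of the RM windows, 30% of the CD11b+ DC windows and 23.3% of all 32851 windows of this length. The shares for TGANTCA were 15.4%, 10% and 6.75%, for TGCTGA 30.8%, 30% and 16.1%, for TGTGGT 23.1%, 10% and 14%, and for CANNTG 92.3%, 80% and 66.2%. With so few windows a single one moves these shares by several percentage points, and they are a description. The 4 windows below are those of a strongly RM-high and a strongly CD11b+ DC-high pair, printed 5′ to 3′ on the strand of the gene, with matches to the first 4 motifs or their reverse complements in capitals. They lie at chr5:90772185-90772434 (+) for *Pf4*, chr11:82101595-82101844 (+) for *Ccl12*, chr8:3748985-3749234 (-) for *Cd209a* and chr6:129717133-129717382 (-) for *Klri1*.
Pf4: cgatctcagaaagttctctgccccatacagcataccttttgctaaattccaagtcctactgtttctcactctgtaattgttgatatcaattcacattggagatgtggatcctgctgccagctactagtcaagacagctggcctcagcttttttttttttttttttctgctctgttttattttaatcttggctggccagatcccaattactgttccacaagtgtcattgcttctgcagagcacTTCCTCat
Ccl12: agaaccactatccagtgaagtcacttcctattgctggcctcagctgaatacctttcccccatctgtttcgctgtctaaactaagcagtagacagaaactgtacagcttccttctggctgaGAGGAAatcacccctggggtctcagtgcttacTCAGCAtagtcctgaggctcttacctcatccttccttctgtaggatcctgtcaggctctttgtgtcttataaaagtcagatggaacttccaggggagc
Cd209a: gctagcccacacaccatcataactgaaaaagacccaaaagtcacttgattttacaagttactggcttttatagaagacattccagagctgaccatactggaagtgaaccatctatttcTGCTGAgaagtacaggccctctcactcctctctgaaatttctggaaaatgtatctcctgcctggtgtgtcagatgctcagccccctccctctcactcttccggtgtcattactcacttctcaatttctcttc
Klri1: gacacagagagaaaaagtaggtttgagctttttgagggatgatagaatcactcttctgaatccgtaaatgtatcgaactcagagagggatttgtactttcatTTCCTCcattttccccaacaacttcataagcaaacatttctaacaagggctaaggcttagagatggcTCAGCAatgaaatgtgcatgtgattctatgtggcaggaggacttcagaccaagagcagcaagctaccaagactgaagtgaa
*Pf4* held TTCCTC at -8 from the start, *Ccl12* its reverse complement at -130, *Klri1* TTCCTC at -148, and *Cd209a* no TTCCTC in this window. The short Maf-type site stood at -98 in *Ccl12*, -132 in *Cd209a* and -81 in *Klri1*, so these letters occurred before genes of either side.

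The genes whose proteins defined the sort followed the gate. *Adgre1*, which encodes F4/80, was at 11.72, 11.92 and 11.93 in RM and 9.81 and 9.65 in CD11b+ DC, a difference that the gate itself chose and that is given only as a check. *Ptprc* (CD45) and *Itgax* (CD11c) differed by 0.17 ± 0.09 and -0.06 ± 0.23, neither called. *Itgam* (CD11b) was at 11.83, 11.81 and 11.86 in RM and 11.39 and 11.13 in CD11b+ DC (adjusted p = 0.0515), and its p was 0.0303 with the litter as a block. The MHC class II genes *H2-Aa*, *H2-Ab1* and *H2-Eb1* and the invariant chain gene *Cd74* lay between 13.28 and 13.64 in all 5 samples and were not called.

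Macrophage identity genes were higher in RM as a group. Of 22 macrophage surface genes, 16 were higher in RM and 1 in CD11b+ DC, with a median difference of 1.41 against 0.01 over all genes. *Cx3cr1*, the fractalkine receptor that marks gut macrophages, was at 10.13, 10.61 and 10.58 in RM and 7.84 and 7.55 in CD11b+ DC (6.68-fold, log2 difference 2.74 ± 0.23, adjusted p = 6.45e-05). *Csf1r*, the receptor for the macrophage growth factor CSF1, was at 12.67, 12.81 and 12.87 in RM and 11.34 and 11.09 in CD11b+ DC (2.97-fold, log2 difference 1.57 ± 0.15, adjusted p = 1.35e-04). The groups of both genes were well apart. *Fcgr1* (CD64), used to tell macrophages from DC, was 4.59-fold higher (log2 difference 2.20 ± 0.30, adjusted p = 0.00132), and *Cd63*, a tetraspanin of late endosomes, 3.83-fold (log2 difference 1.94 ± 0.17, adjusted p = 9.48e-05). *Cd4*, the T cell coreceptor that a long-lived subset of gut macrophages is known to carry, was at 11.21, 11.68 and 11.81 in RM and 8.84 and 9.02 in CD11b+ DC (6.21-fold, log2 difference 2.63 ± 0.27, adjusted p = 1.94e-04). *Siglec1*, a sialic acid receptor of tissue macrophages, was 4.56-fold higher (log2 difference 2.19 ± 0.23, adjusted p = 2.68e-04). *Mertk*, the receptor tyrosine kinase for dying cells, was at 7.95, 8.63 and 8.77 in RM and 6.29 and 6.42 in CD11b+ DC (log2 difference 2.09 ± 0.40, adjusted p = 0.00930), and did not pass without CD11b+ DC replicate 1 (adjusted p = 0.0807) or 2 (0.0654). *Timd4*, the phosphatidylserine receptor of long-lived macrophages, was the member higher in CD11b+ DC (log2 difference -1.24 ± 0.21, adjusted p = 0.00448), a call lost without CD11b+ DC replicate 2 (adjusted p = 0.0602). The 16 became 10 without that sample.

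Among transcription factors of macrophages, 6 of 14 were higher in RM and 1 in CD11b+ DC (median 0.71). *Maf*, a factor of IL-10-producing and tissue macrophages, was at 8.60, 9.45 and 9.41 in RM and 7.28 and 7.12 in CD11b+ DC (3.86-fold, log2 difference 1.95 ± 0.24, adjusted p = 6.14e-04). *Spic*, the factor of iron-recycling macrophages, was at 10.91, 10.35 and 11.03 in RM and 8.62 and 9.34 in CD11b+ DC (3.45-fold, log2 difference 1.79 ± 0.25, adjusted p = 0.00153). *Tfec*, of the MiT family that controls lysosomal genes, was 4.52-fold higher (log2 difference 2.18 ± 0.34, adjusted p = 0.00286), and *Bhlhe41* was higher too (log2 difference 1.87 ± 0.24, adjusted p = 8.22e-04), while its paralogue *Bhlhe40* was the 1 gene higher in CD11b+ DC (log2 difference -0.70 ± 0.14, adjusted p = 0.0137). *Spi1*, which encodes the myeloid factor PU.1, was 1.40-fold higher (log2 difference 0.48 ± 0.10, adjusted p = 0.0175) and did not pass with the litter as a block (adjusted p = 0.0566). The count of 6 became 4 without CD11b+ DC replicate 1, without CD11b+ DC replicate 2 or without RM replicate 3, and the calls of *Bhlhe40*, *Spi1* and *Cebpb* were lost without CD11b+ DC replicate 1 (adjusted p = 0.119, 0.0792 and 0.0510) and 2 (0.0704, 0.144 and 0.157). *Spi1* and *Cebpb* were not called with the 5 WT samples alone (adjusted p = 0.128 and 0.0530). *Spi1* and *Cebpb* were also lost without RM replicate 3 (0.0680 and 0.0591).

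DC identity genes ran the other way. Of 20 surface genes of cDC2 (the CD11b+ branch of conventional DC) and of conventional DC at large, 14 were higher in CD11b+ DC and none in RM, with a median of -1.60. Beside *Flt3*, *Itgae*, *Cd7* and *Cd209a*, these included *Kit*, the stem cell factor receptor, at 7.81, 7.19 and 7.77 in RM and 10.31 and 10.79 in CD11b+ DC (7.80-fold, log2 difference -2.96 ± 0.24, adjusted p = 5.45e-05). *Cd101*, an inhibitory receptor gene of gut CD103+ DC, was 6.40-fold higher (log2 difference -2.68 ± 0.23, adjusted p = 8.38e-05), and *Ffar2*, a receptor for short-chain fatty acids, was at 5.67, 4.85 and 5.07 in RM and 7.76 and 7.83 in CD11b+ DC (log2 difference -2.60 ± 0.20, adjusted p = 4.92e-05). *Kmo*, a kynurenine pathway enzyme rather than a surface protein, was 3.37-fold higher (log2 difference -1.75 ± 0.15, adjusted p = 7.43e-05) and *Adam23* 4.24-fold (log2 difference -2.08 ± 0.27, adjusted p = 8.11e-04). *Cd24a*, a surface glycoprotein gene of CD11b+ gut DC, was at 10.38, 9.83 and 8.95 in RM and 11.46 and 10.86 in CD11b+ DC (log2 difference -1.44 ± 0.34, adjusted p = 0.0290). Its RM samples spanned more than 1 log2 unit, and its call was lost without CD11b+ DC replicate 1, CD11b+ DC replicate 2 or RM replicate 2 (adjusted p = 0.245, 0.0636 and 0.0553). *Esam*, a marker of the Notch2-dependent splenic branch, was at 4.91, 5.03 and 5.25 in RM and 5.39 and 5.37 in CD11b+ DC and was not called (log2 difference -0.32 ± 0.15, adjusted p = 0.311). *Cd24a* was not called with the 5 WT samples alone (adjusted p = 0.200).

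Of 19 transcription factors of DC, 6 were higher in CD11b+ DC and 2 in RM (median -0.28). *Zbtb46*, the factor restricted to conventional DC, differed by -1.65 ± 0.13 (adjusted p = 4.87e-05). *Irf4*, on which the CD11b+ branch depends, was at 9.29, 9.56 and 9.07 in RM and 10.79 and 10.49 in CD11b+ DC (2.52-fold, log2 difference -1.33 ± 0.17, adjusted p = 8.78e-04), and *Irf8*, the factor of the other branch, was at 9.89, 9.76 and 9.97 in RM and 9.38 and 9.18 in CD11b+ DC and was not called (adjusted p = 0.0668). *Bcl11a*, a factor of DC precursors, was 2.23-fold higher in CD11b+ DC (log2 difference -1.16 ± 0.21, adjusted p = 0.00667). *Zeb2* and *Tcf4*, an E-protein gene central to plasmacytoid DC, were higher in RM (log2 difference 0.95 ± 0.19, adjusted p = 0.0111 and log2 difference 0.75 ± 0.13, adjusted p = 0.00593). *Klf4*, *Notch2* and *Id2*, which shape DC branches, differed by -0.20 ± 0.20, -0.15 ± 0.16 and 0.23 ± 0.18 and were not called. Without either CD11b+ DC sample 3 of the 6 factors passed. *Bcl11a* was lost without CD11b+ DC replicate 1 (adjusted p = 0.0913), *Tcf4* without replicate 2 (0.0854) and *Zeb2* without replicate 1 (0.0808) or 2 (0.0834). *Bcl11a*, *Zeb2* and *Tcf4* were not called with the 5 WT samples alone (adjusted p = 0.101, 0.0781 and 0.0719).

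**Figure D2:**
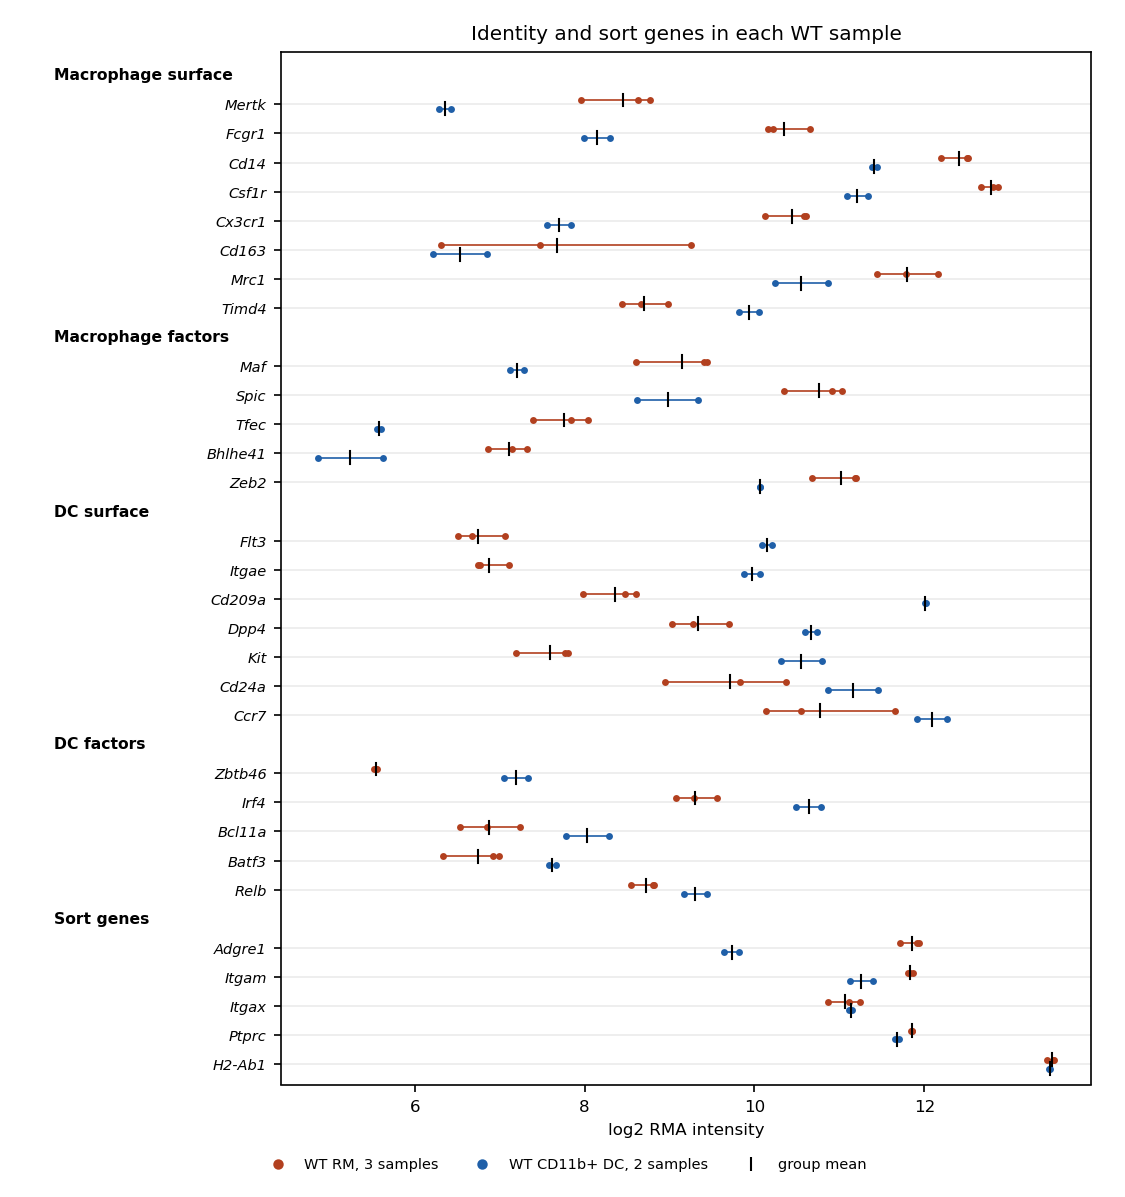
Each point is 1 WT sample (3 RM in red, 2 CD11b+ DC in blue), with the log2 RMA intensity on the x axis, a thin line from the lowest to the highest sample and a black tick at the group mean, for identity and sort genes. The groups are apart for all genes shown except *Cd163*, *Itgax* and *H2-Ab1*.

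Genes of other branches did not all follow the cell type. Of 13 cDC1 genes (the other, cross-presenting branch of conventional DC), 4 were higher in CD11b+ DC and 2 in RM. The largest difference in this list (-3.10) was that of *Itgae*, which is also counted among the cDC2 surface genes. *Wdfy4*, needed for cross-presentation, was at 9.61, 9.26 and 9.09 in RM and 11.48 and 11.20 in CD11b+ DC (4.06-fold, log2 difference -2.02 ± 0.17, adjusted p = 6.45e-05), and *Clec9a*, a receptor for damaged cells, was 2.73-fold higher in CD11b+ DC (log2 difference -1.45 ± 0.22, adjusted p = 0.00239). *Xcr1*, the cDC1 chemokine receptor, was at 7.97, 7.60 and 7.63 in RM and 8.79 and 8.73 in CD11b+ DC and fell just short of the threshold (adjusted p = 0.0503). It passed without RM replicate 1 (0.0440) and with the 5 WT samples alone (0.0365). *Cadm1*, an adhesion gene used to mark cDC1, was instead higher in RM, at 8.19, 8.51 and 9.14 in RM and 6.78 and 6.92 in CD11b+ DC (3.39-fold, log2 difference 1.76 ± 0.27, adjusted p = 0.00280), and it was the 1 RM call left without CD11b+ DC replicate 2. Of 11 monocyte genes, 4 were higher in CD11b+ DC, led by *S100a4*, a calcium-binding protein of motile cells, at 5.96, 6.14 and 5.64 in RM and 8.23 and 8.12 in CD11b+ DC (4.78-fold, log2 difference -2.26 ± 0.21, adjusted p = 1.11e-04), and *Lsp1*, a leukocyte actin-binding protein (3.86-fold, log2 difference -1.95 ± 0.18, adjusted p = 1.35e-04). *Ccr2*, the receptor that brings monocytes to tissue, was at 10.48, 10.10 and 9.90 in RM and 9.88 and 9.62 in CD11b+ DC and was not called (adjusted p = 0.451). Of 10 genes of plasmacytoid DC, 5 were higher in RM, led by the phospholipid transfer gene *Pltp* (log2 difference 0.69 ± 0.10, adjusted p = 0.00244), and this count was 3 with the litter as a block, 2 without RM replicate 1 or CD11b+ DC replicate 1, 3 without RM replicate 2 or 3, and 1 without CD11b+ DC replicate 2. *Siglech*, the defining surface gene of plasmacytoid DC in this list, differed by 0.24 and was not called. *Clec9a* and *Pltp* were not called with the 5 WT samples alone (adjusted p = 0.0523 and 0.0541).

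Growth factor receptors parted by lineage. Of 12 genes of the CSF and Flt3 systems, *Csf1r* and *Csf3r* were higher in RM and *Flt3* and *Kit* in CD11b+ DC. *Csf3r*, the granulocyte colony-stimulating factor receptor, was at 9.50, 9.42 and 9.94 in RM and 7.59 and 7.64 in CD11b+ DC (4.01-fold, log2 difference 2.004 ± 0.23, adjusted p = 3.70e-04). *Csf2rb*, the shared chain of the GM-CSF, IL-3 and IL-5 receptors, was at 12.17, 12.04 and 12.10 in RM and 12.41 and 12.41 in CD11b+ DC and was not called (adjusted p = 0.165). The 4 calls stood without any 1 of the WT samples.

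Complement genes were among the most uniform differences: 10 of 17 were higher in RM and none in CD11b+ DC, with a median of 1.39. The 3 chains of C1q, which tags dying cells and immune complexes, all had higher levels in RM. *C1qa* was at 12.39, 12.51 and 12.64 in RM and 10.45 and 10.38 in CD11b+ DC (4.29-fold, log2 difference 2.10 ± 0.17, adjusted p = 5.49e-05), *C1qb* was 3.05-fold higher (log2 difference 1.61 ± 0.15, adjusted p = 1.34e-04) and *C1qc* 5.26-fold (log2 difference 2.40 ± 0.20, adjusted p = 7.04e-05). The receptors for the complement fragments C3a and C5a followed, with *C3ar1* at 12.36, 12.90 and 12.81 in RM and 10.40 and 10.10 in CD11b+ DC (5.42-fold, log2 difference 2.44 ± 0.20, adjusted p = 6.45e-05) and *C5ar1* 4.21-fold higher (log2 difference 2.07 ± 0.24, adjusted p = 4.79e-04). *Cd93*, a receptor gene once described as a C1q receptor, was 4.60-fold higher (log2 difference 2.20 ± 0.17, adjusted p = 4.87e-05). RM and CD11b+ DC did not overlap in any of these, and 8 to 11 of the list were called when any 1 WT sample was left out.

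All 4 Fc gamma receptor genes and their signaling chain were higher in RM, 5 of the 9 Fc receptor genes measured (median 0.99), and the same number was called without any 1 WT sample. *Fcgr4* was at 11.63, 11.52 and 11.94 in RM and 9.14 and 9.59 in CD11b+ DC (5.03-fold, log2 difference 2.33 ± 0.33, adjusted p = 0.00174), *Fcgr3* was 2.91-fold higher (log2 difference 1.54 ± 0.23, adjusted p = 0.00213), and *Fcer1g*, the chain through which they signal, 1.99-fold (log2 difference 0.99 ± 0.15, adjusted p = 0.00265). The inhibitory *Fcgr2b* was higher as well, at 12.39, 12.24 and 12.43 in RM and 11.09 and 11.07 in CD11b+ DC (2.42-fold, log2 difference 1.27 ± 0.20, adjusted p = 0.00308). These receptors share sequence, so the values of single members are uncertain.

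Scavenger receptors were higher in RM in 5 of 15 genes and in CD11b+ DC in none (median 0.64). *Msr1*, a receptor for modified lipoproteins and bacteria, was at 11.08, 10.89 and 11.07 in RM and 8.32 and 8.35 in CD11b+ DC (6.41-fold, log2 difference 2.68 ± 0.18, adjusted p = 3.32e-05). *Mrc1*, the mannose receptor, was at 11.44, 12.16 and 11.79 in RM and 10.87 and 10.24 in CD11b+ DC (2.37-fold, log2 difference 1.24 ± 0.27, adjusted p = 0.0185), and its call was lost without RM replicate 2 (adjusted p = 0.0549), RM replicate 3 (0.0573) or CD11b+ DC replicate 2 (0.201). Of 22 receptors and bridging proteins for dying cells, 7 were higher in RM and 2 in CD11b+ DC (median 0.16). *Axl*, a relative of *Mertk*, was at 10.65, 10.57 and 10.84 in RM and 8.97 and 9.04 in CD11b+ DC (3.21-fold, log2 difference 1.68 ± 0.17, adjusted p = 2.05e-04), and their shared ligand *Gas6* was at 7.63, 8.98 and 8.67 in RM and 6.60 and 5.80 in CD11b+ DC (4.68-fold, log2 difference 2.23 ± 0.37, adjusted p = 0.00394). Both chains of the integrin αvβ5, which binds the bridges to dying cells, were higher in RM: *Itgb5* at 11.29, 10.89 and 11.36 in RM and 8.48 and 8.58 in CD11b+ DC (6.27-fold, log2 difference 2.65 ± 0.23, adjusted p = 7.88e-05) and *Itgav* 2.85-fold (log2 difference 1.51 ± 0.25, adjusted p = 0.00414). *Gas6* did not pass without CD11b+ DC replicate 2 (adjusted p = 0.0607), which left 4 of the 7 and 0 of the 2 dying-cell genes (6 and 1 without CD11b+ DC replicate 1), and 3 of the 5 scavenger genes passed without either CD11b+ DC sample or without RM replicate 2 or 3. *Mrc1*, *Gas6* and *Itgav* were not called with the 5 WT samples alone (adjusted p = 0.101, 0.0804 and 0.0627).

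Lysosomal genes made the longest one-sided list. Of 35 hydrolases and membrane proteins of the lysosome, 24 were higher in RM and none in CD11b+ DC, with a median of 0.79, so the shift was broad and of modest size. *Ctsl*, a cathepsin protease, was at 10.58, 10.71 and 10.81 in RM and 8.57 and 8.48 in CD11b+ DC (4.52-fold, log2 difference 2.17 ± 0.17, adjusted p = 4.92e-05). *Lgmn*, the asparagine-specific protease legumain, was at 12.62, 12.74 and 12.83 in RM and 11.28 and 11.39 in CD11b+ DC (2.63-fold, log2 difference 1.40 ± 0.11, adjusted p = 5.54e-05). *Acp5*, tartrate-resistant acid phosphatase, was 3.87-fold higher (log2 difference 1.95 ± 0.19, adjusted p = 1.77e-04), *Ctsf* was higher as well (log2 difference 1.28 ± 0.13, adjusted p = 1.83e-04) and *Lamp1*, a major membrane protein of the lysosome, was 1.96-fold higher (log2 difference 0.97 ± 0.09, adjusted p = 1.11e-04). In each of these the lowest RM sample lay above both CD11b+ DC samples. The 24 became 11 without CD11b+ DC replicate 1 and 14 without CD11b+ DC replicate 2, and *Ctsl*, *Lgmn*, *Acp5*, *Ctsf* and *Lamp1* passed in each case.

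Genes for the handling of cholesterol and iron were called in both directions, more of them in RM. Of 18 cholesterol genes, 9 were higher in RM and 1 in CD11b+ DC (median 0.60). *Apoe*, the lipoprotein that carries cholesterol away from cells, was at 13.68, 13.73 and 13.86 in RM and 12.30 and 12.13 in CD11b+ DC (2.92-fold, log2 difference 1.54 ± 0.11, adjusted p = 3.49e-05), and *Abca1*, the transporter that loads it, was at 10.67, 11.14 and 11.10 in RM and 8.96 and 8.85 in CD11b+ DC (4.18-fold, log2 difference 2.06 ± 0.19, adjusted p = 1.04e-04). *Mylip*, which degrades the LDL receptor, was 2.74-fold higher (log2 difference 1.45 ± 0.18, adjusted p = 6.07e-04). *Srebf2*, the factor that turns on cholesterol synthesis, was the member higher in CD11b+ DC, at 9.62, 9.21 and 9.14 in RM and 10.40 and 10.16 in CD11b+ DC (1.95-fold, log2 difference -0.96 ± 0.15, adjusted p = 0.00244). Of 14 iron and heme genes, 7 were higher in RM and 2 in CD11b+ DC (median 0.74). *Slc40a1*, the iron exporter ferroportin, was at 6.29, 6.80 and 6.65 in RM and 4.55 and 4.34 in CD11b+ DC (log2 difference 2.14 ± 0.30, adjusted p = 0.00168), *Cp*, the ferroxidase ceruloplasmin that works with it, was at 8.72, 8.92 and 8.56 in RM and 6.65 and 6.34 in CD11b+ DC (4.73-fold, log2 difference 2.24 ± 0.21, adjusted p = 1.11e-04), and *Blvrb*, of heme breakdown, was 3.14-fold higher (log2 difference 1.65 ± 0.20, adjusted p = 6.42e-04). *Tfrc*, the transferrin receptor for iron uptake, was higher in CD11b+ DC, at 7.23, 6.76 and 6.28 in RM and 8.03 and 7.95 in CD11b+ DC (2.35-fold, log2 difference -1.23 ± 0.22, adjusted p = 0.00704). Without either CD11b+ DC sample 6 of the 9 cholesterol genes and 4 of the 7 iron genes of RM passed and 0 of the 2 of CD11b+ DC, *Tfrc* included (adjusted p = 0.0680 without replicate 1 and 0.0539 without replicate 2). Of the CD11b+ DC calls, 1 iron gene was left without RM replicate 2 or 3 and with the litter as a block, and 2 cholesterol genes were called without RM replicate 1. *Srebf2* and *Tfrc* were not called with the 5 WT samples alone (adjusted p = 0.0695 and 0.102).

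Of 18 chemokines for monocytes and granulocytes, 9 were higher in RM and none in CD11b+ DC (median 1.17), and of 13 for lymphocytes and DC, 1 was higher in RM and 2 in CD11b+ DC (median 0.05), counts that became 2 and 3 without RM replicate 1. Beside *Pf4*, *Ccl12*, *Ccl8* and *Ccl7*, the neutrophil chemokines *Cxcl1*, at 10.43, 10.66 and 10.45 in RM and 9.18 and 8.63 in CD11b+ DC (3.04-fold, log2 difference 1.61 ± 0.21, adjusted p = 0.00101), and *Cxcl2* (2.30-fold, log2 difference 1.20 ± 0.21, adjusted p = 0.00575) were higher in RM. *Ccl17* and *Ccl22*, ligands of CCR4 on regulatory and type 2 T cells, were the CD11b+ DC pair. *Ccl17* was at 6.04, 6.26 and 6.56 in RM and 9.57 and 9.54 in CD11b+ DC (9.63-fold, log2 difference -3.27 ± 0.32, adjusted p = 1.55e-04) and *Ccl22* at 7.82, 7.21 and 7.97 in RM and 9.71 and 9.94 in CD11b+ DC (4.46-fold, log2 difference -2.16 ± 0.23, adjusted p = 2.44e-04). *Cxcl13*, the B cell chemokine, was at 8.51, 8.48 and 7.11 in RM and 5.74 and 5.65 in CD11b+ DC (5.06-fold higher in RM, log2 difference 2.34 ± 0.53, adjusted p = 0.0246), with RM replicate 3 lower than the other RM samples. Its call was lost without RM replicate 1 (adjusted p = 0.0588), RM replicate 2 (0.0732), CD11b+ DC replicate 1 (0.129) or CD11b+ DC replicate 2 (0.146). *Cxcl2* was lost without CD11b+ DC replicate 2 (0.0780), and 5 of the 9 monocyte and granulocyte chemokines passed there and 6 without CD11b+ DC replicate 1. Like *Ccl8* and *Ccl7*, *Cxcl13* was not called with the 5 WT samples alone (adjusted p = 0.0684).

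Of 22 cytokine genes, 5 were higher in RM and 2 in CD11b+ DC (median 0.47). *Il10*, the cytokine through which gut macrophages restrain inflammation, was at 11.40, 11.30 and 11.45 in RM and 8.44 and 8.61 in CD11b+ DC (7.26-fold, log2 difference 2.86 ± 0.48, adjusted p = 0.00455), with the 3 RM samples close together. *Tnfsf13b*, the B cell survival factor BAFF, was at 8.47, 8.56 and 9.20 in RM and 6.76 and 6.79 in CD11b+ DC (3.91-fold, log2 difference 1.97 ± 0.21, adjusted p = 2.67e-04). The other 3 RM genes were *Il16*, a T cell attractant (log2 difference 0.75 ± 0.15, adjusted p = 0.0134), and the antagonists of IL-18 and IL-1, *Il18bp* (log2 difference 1.24 ± 0.28, adjusted p = 0.0251) and *Il1rn* (log2 difference 0.77 ± 0.18, adjusted p = 0.0280). *Il6*, which supports Th17 and plasma cells, was higher in CD11b+ DC, at 8.87, 8.89 and 9.15 in RM and 10.02 and 10.30 in CD11b+ DC (2.28-fold, log2 difference -1.19 ± 0.29, adjusted p = 0.0338). Of these, *Il10* and *Tnfsf13b* stood without any 1 WT sample. Without CD11b+ DC replicate 1 the calls of *Il16*, *Il18bp*, *Il1rn* and *Il6* were lost (adjusted p = 0.0529, 0.171, 0.270 and 0.108), and without CD11b+ DC replicate 2 those of *Il16*, *Il18bp* and *Il6* (0.133, 0.108 and 0.232). Then 2 and 3 of the 5 RM calls passed, and 3 without RM replicate 3. Neither CD11b+ DC call passed when any 1 WT sample was left out (0.0642 to 0.0841 for *Il6* without 1 of the RM samples), and *Il18bp* and *Il1rn* were lost without RM replicate 3 (0.0930 and 0.100), *Il1rn* also without RM replicate 1 (0.0564). Of 12 genes of the IL-10 pathway 2 were higher in RM, *Il10* among them, and the count was 1 without RM replicate 2 or 3 or either CD11b+ DC sample. *Tyk2*, a kinase of the IL-10 receptor, was the 1 gene higher in CD11b+ DC, at 7.45, 7.30 and 7.37 in RM and 8.11 and 8.05 in CD11b+ DC (1.64-fold, log2 difference -0.71 ± 0.11, adjusted p = 0.00279). *Il16* and *Il1rn* were not called with the 5 WT samples alone (adjusted p = 0.115 and 0.169). In the IL-10 list the CD11b+ DC count was 2 without RM replicate 3.

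Of 18 growth factor genes, 8 were higher in RM and none in CD11b+ DC (median 0.54). *Hgf*, a growth factor for epithelium, was at 7.77, 7.74 and 7.84 in RM and 6.45 and 6.41 in CD11b+ DC (2.56-fold, log2 difference 1.36 ± 0.15, adjusted p = 3.51e-04). *Pdgfa*, a growth factor for fibroblasts, was 2.44-fold higher (log2 difference 1.29 ± 0.15, adjusted p = 3.77e-04), *Nrg1*, a ligand of ErbB receptors on intestinal stem cells, was at 8.47, 7.96 and 8.80 in RM and 6.80 and 6.73 in CD11b+ DC (3.12-fold, log2 difference 1.64 ± 0.25, adjusted p = 0.00277), and *Tgfb3* was 2.33-fold higher (log2 difference 1.22 ± 0.18, adjusted p = 0.00202). *Igf1* was at 7.23, 8.91 and 8.26 in RM and 6.18 and 5.60 in CD11b+ DC (4.74-fold, log2 difference 2.25 ± 0.41, adjusted p = 0.00704), with RM replicate 1 closer to the CD11b+ DC than the other RM samples. Of 17 matrix proteases and inhibitors, 7 were higher in RM and 1 in CD11b+ DC (median 0.52). *Mmp13* was at 11.70, 12.20 and 12.53 in RM and 9.17 and 9.05 in CD11b+ DC (8.21-fold, log2 difference 3.04 ± 0.28, adjusted p = 1.24e-04), *Mmp14*, the membrane-bound protease that activates MMP2 and MMP13, was at 11.79, 11.40 and 11.90 in RM and 9.45 and 9.81 in CD11b+ DC (4.19-fold, log2 difference 2.07 ± 0.25, adjusted p = 5.33e-04), and *Plau*, the urokinase gene, was at 10.05, 11.03 and 10.74 in RM and 8.03 and 7.89 in CD11b+ DC (6.25-fold, log2 difference 2.64 ± 0.31, adjusted p = 4.44e-04). *Timp2*, an inhibitor of these proteases, was also higher (2.56-fold, log2 difference 1.36 ± 0.20, adjusted p = 0.00176). Without CD11b+ DC replicate 2, 4 of the 8 growth factors and 4 of the 7 matrix genes passed, *Igf1* not among them (adjusted p = 0.0892), and without CD11b+ DC replicate 1, 5 of the 8 growth factors passed. Without RM replicate 1, 2 matrix genes were higher in CD11b+ DC. *Igf1* was not called with the 5 WT samples alone (adjusted p = 0.0992).

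Receptors for microbial products were higher in RM in 11 of 20 genes and in CD11b+ DC in 1 (median 1.03). The endosomal receptors for nucleic acids included *Tlr7*, for single-stranded RNA, at 9.11, 9.61 and 9.91 in RM and 7.09 and 7.37 in CD11b+ DC (4.97-fold, log2 difference 2.31 ± 0.27, adjusted p = 4.39e-04), and *Tlr9*, for unmethylated DNA, at 10.59, 10.72 and 10.85 in RM and 9.65 and 9.49 in CD11b+ DC (2.22-fold, log2 difference 1.15 ± 0.11, adjusted p = 1.66e-04). *Tlr12*, a receptor for a protozoan profilin, was at 8.70, 8.79 and 9.32 in RM and 6.59 and 6.83 in CD11b+ DC (4.70-fold, log2 difference 2.23 ± 0.24, adjusted p = 2.99e-04). *Tlr1* and *Tlr6*, the partners of TLR2 for lipoproteins, were 3.02-fold (log2 difference 1.60 ± 0.21, adjusted p = 8.53e-04) and 2.09-fold higher (log2 difference 1.07 ± 0.17, adjusted p = 0.00298). For lipopolysaccharide, *Ly96* (MD-2) was at 10.54, 10.92 and 10.97 in RM and 8.57 and 9.19 in CD11b+ DC (3.81-fold, log2 difference 1.93 ± 0.27, adjusted p = 0.00163), *Cd14* was 1.99-fold higher (log2 difference 0.99 ± 0.22, adjusted p = 0.0208) and *Tlr4* 2.15-fold (log2 difference 1.10 ± 0.22, adjusted p = 0.0114). *Tlr3*, for double-stranded RNA, was at 6.70, 6.55 and 6.68 in RM and 7.04 and 6.52 in CD11b+ DC and was not called. Without CD11b+ DC replicate 2, 6 of the 11 passed, *Cd14* (adjusted p = 0.138) and *Tlr4* (0.127) not among them, and the CD11b+ DC call was lost without either CD11b+ DC sample. *Cd14* was also lost without CD11b+ DC replicate 1 (0.109) or RM replicate 3 (0.0744). *Tlr4* was not called with the 5 WT samples alone (adjusted p = 0.0794).

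In the MHC class II pathway the classical genes named above were not called, while regulators and proteases were. Of 16 genes, 2 were higher in RM and 2 in CD11b+ DC (median -0.02). *H2-Oa* and *H2-Ob* encode H2-O, the inhibitor of the peptide editor H2-M. *H2-Oa* was at 9.17, 9.03 and 8.98 in RM and 10.83 and 11.10 in CD11b+ DC (3.74-fold higher in CD11b+ DC, log2 difference -1.90 ± 0.24, adjusted p = 7.44e-04) and *H2-Ob* at 9.98, 9.73 and 9.45 in RM and 10.77 and 10.74 in CD11b+ DC (2.05-fold, log2 difference -1.03 ± 0.20, adjusted p = 0.0111). The proteases that trim the invariant chain and antigen, *Ctss* (1.74-fold, log2 difference 0.80 ± 0.10, adjusted p = 8.34e-04) and *Lgmn*, were the pair higher in RM. *H2-Ob* was lost without CD11b+ DC replicate 1 (adjusted p = 0.0853) or 2 (0.0795). *H2-Ob* was not called with the 5 WT samples alone (adjusted p = 0.0515).

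Costimulators did not run one way, with 3 of 20 higher in RM and 4 in CD11b+ DC (median -0.32). The RM genes were *Vsir* (VISTA) at 10.19, 10.59 and 10.65 in RM and 9.10 and 8.65 in CD11b+ DC (3.03-fold, log2 difference 1.60 ± 0.19, adjusted p = 5.54e-04), *Cd276* (B7-H3) at 8.58, 8.64 and 9.05 in RM and 7.04 and 7.10 in CD11b+ DC (3.21-fold, log2 difference 1.68 ± 0.21, adjusted p = 7.85e-04) and *Lgals9*, a ligand of TIM-3, 2.24-fold (log2 difference 1.16 ± 0.19, adjusted p = 0.00432). *Pdcd1lg2* (PD-L2) was higher in CD11b+ DC, at 7.95, 8.05 and 8.42 in RM and 9.36 and 9.69 in CD11b+ DC (2.61-fold, log2 difference -1.38 ± 0.25, adjusted p = 0.00664). *Cd80*, *Cd86*, *Cd40* and *Cd83*, the classical signs of DC maturation, differed by -0.47 ± 0.15, -0.10 ± 0.12, 0.15 ± 0.21 and -0.36 ± 0.18 and none was called. The 3 RM calls stood without any 1 WT sample, while none of the 4 CD11b+ DC calls passed without CD11b+ DC replicate 2 (adjusted p = 0.0845 for *Pdcd1lg2*), 1 passed without RM replicate 3 and 2 without CD11b+ DC replicate 1.

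Of 22 genes of mature, migrating DC, 8 were higher in CD11b+ DC and none in RM (median -0.33). By sign alone, 14 had higher levels in CD11b+ DC and 8 in RM. The largest difference in this list (-3.27) was that of *Ccl17*, which is also counted among the chemokines. *Ly75* (DEC-205), an antigen uptake receptor, was at 6.41, 5.87 and 6.18 in RM and 8.37 and 8.89 in CD11b+ DC (5.56-fold, log2 difference -2.48 ± 0.25, adjusted p = 1.90e-04), and *Traf1*, an adaptor of TNF receptor signaling, was 2.35-fold higher (log2 difference -1.23 ± 0.16, adjusted p = 0.00104). *Fscn1*, which bundles actin in mature DC, was at 8.76, 6.97 and 7.40 in RM and 8.59 and 8.98 in CD11b+ DC and overlapped between the groups through RM replicate 1 (adjusted p = 0.188, and 0.00208 without that sample). *Ccr7* itself was 2.48-fold higher in CD11b+ DC (log2 difference -1.31 ± 0.34, adjusted p = 0.0432), with RM replicate 1, at 11.66, close to the CD11b+ DC. Its call was lost without RM replicate 2 (adjusted p = 0.0955), RM replicate 3 (0.141), CD11b+ DC replicate 1 (0.124) or CD11b+ DC replicate 2 (0.278), and the list's count was 9 without RM replicate 1, 5 without RM replicate 3 or CD11b+ DC replicate 1 and 4 without CD11b+ DC replicate 2. *Ccr7* was not called with the 5 WT samples alone (adjusted p = 0.257).

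*Aldh1a2*, the enzyme that makes retinoic acid and by which gut DC imprint gut homing, was at 5.81, 7.60 and 7.001 in RM and 9.27 and 8.83 in CD11b+ DC (4.74-fold higher in CD11b+ DC, log2 difference -2.25 ± 0.49, adjusted p = 0.0190). RM replicate 1 was the lowest of all 5 samples, and the call was lost without CD11b+ DC replicate 1 (adjusted p = 0.154) or 2 (0.0806). The other 18 genes for retinoic acid and TGF-beta activation held *Ido1*, an enzyme of tryptophan breakdown, at 4.87, 4.72 and 4.50 in RM and 5.42 and 6.04 in CD11b+ DC (log2 difference -1.03 ± 0.24, adjusted p = 0.0292), and the αv and β5 integrin chains already given for RM. *Ido1* was lost without RM replicate 2, RM replicate 3 or CD11b+ DC replicate 2 (adjusted p = 0.0636, 0.105 and 0.281). *Aldh1a2* and *Ido1* were not called with the 5 WT samples alone (adjusted p = 0.110 and 0.0886).

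C-type lectins were shared out evenly, 7 of 25 to each cell type. The DC-SIGN relatives *Cd209b* (log2 difference -1.87 ± 0.22, adjusted p = 5.05e-04) and *Cd209d* (log2 difference -2.30 ± 0.22, adjusted p = 1.35e-04) were higher in CD11b+ DC with *Cd209a*. In the *Clec4a* cluster, which encodes inhibitory and activating receptors of myeloid cells, *Clec4a4* (DCIR2) was at 5.60, 5.73 and 5.58 in RM and 7.38 and 8.06 in CD11b+ DC (4.22-fold higher in CD11b+ DC, log2 difference -2.08 ± 0.29, adjusted p = 0.00149) and *Clec4a2* (DCIR) at 8.77, 8.63 and 8.88 in RM and 7.40 and 7.53 in CD11b+ DC (2.45-fold higher in RM, log2 difference 1.29 ± 0.17, adjusted p = 0.00105). The 2 genes are near relatives that can share probes, and their differences had opposite signs. The RM count of 7 was 4 without RM replicate 3, CD11b+ DC replicate 1 or CD11b+ DC replicate 2.

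Integrins also parted the cells, with 5 of 18 higher in RM and 3 in CD11b+ DC. *Itgb7*, the partner of *Itgae* and *Itga4*, was at 7.64, 7.27 and 7.25 in RM and 9.75 and 9.76 in CD11b+ DC (5.17-fold higher in CD11b+ DC, log2 difference -2.37 ± 0.19, adjusted p = 5.54e-05), and *Itga4*, which with β7 binds the gut vessel ligand MAdCAM-1, was 2.22-fold higher (log2 difference -1.15 ± 0.14, adjusted p = 6.36e-04). On the RM side, *Itga9*, which binds tenascin and osteopontin, was at 10.62, 11.0002 and 11.16 in RM and 8.20 and 8.24 in CD11b+ DC (6.54-fold, log2 difference 2.71 ± 0.18, adjusted p = 3.30e-05), and *Itga6*, a laminin receptor chain, was 2.30-fold higher (log2 difference 1.20 ± 0.17, adjusted p = 0.00142). The 3 CD11b+ DC calls stood without any 1 WT sample.

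**Figure D3:**
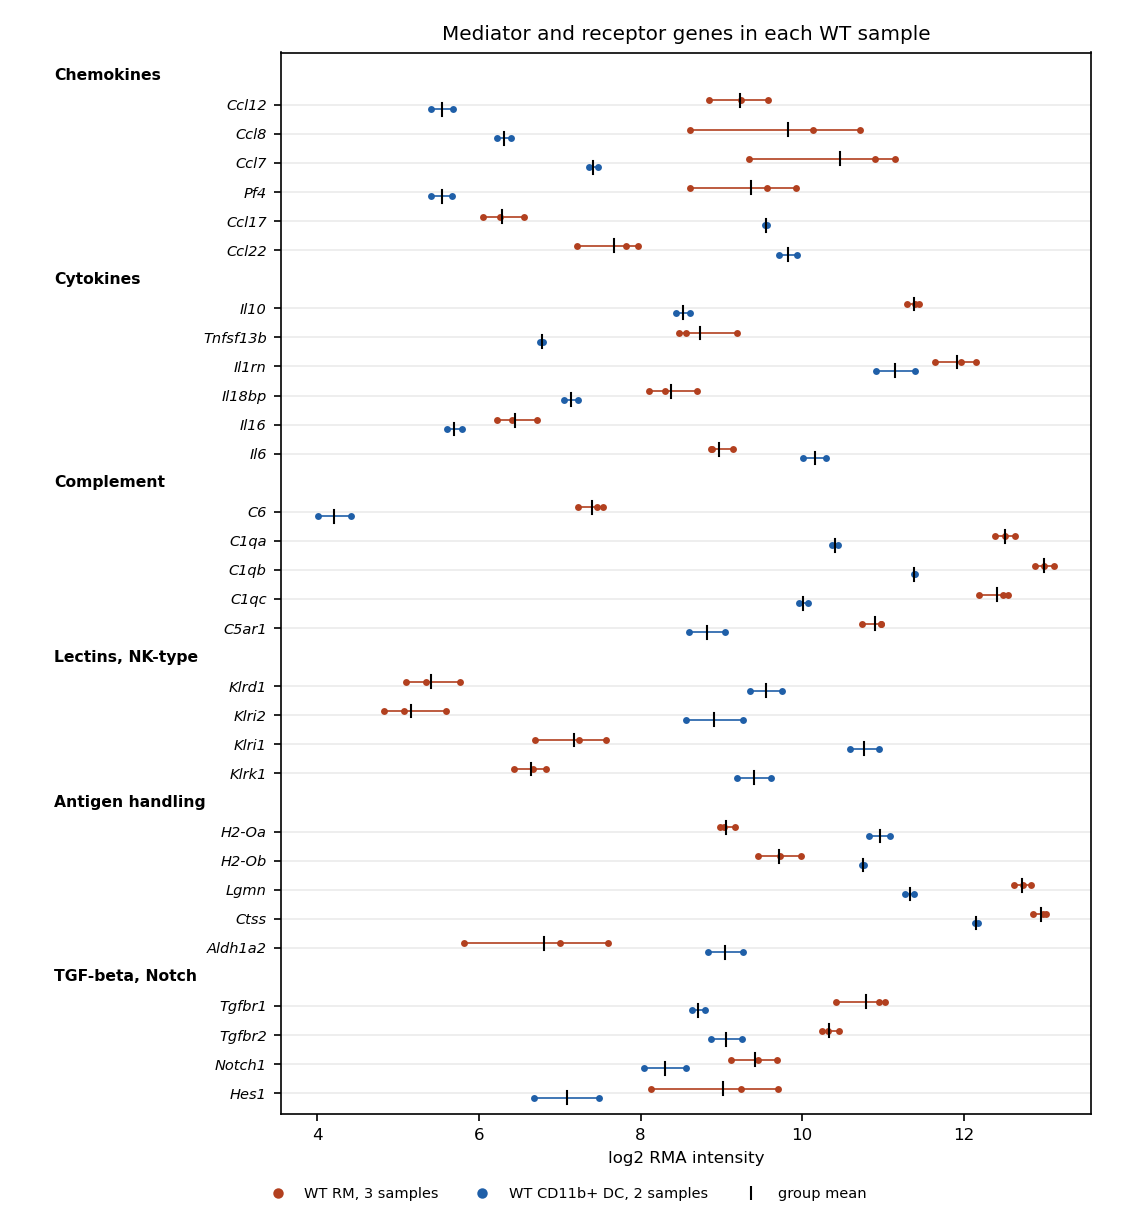
Points are single WT samples (3 RM in red, 2 CD11b+ DC in blue) on an axis of log2 RMA intensity, with a thin line from the lowest to the highest sample and a black tick at the group mean, for mediator and receptor genes. The groups do not overlap in any gene shown, and the widest gaps are those of *Klrd1* and *Ccl12*.

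Enzymes of lipid mediators were divided: 4 of 19 prostaglandin and leukotriene genes were higher in RM and 4 in CD11b+ DC. *Pla2g7*, which breaks down platelet-activating factor, was at 12.80, 12.54 and 12.71 in RM and 10.93 and 10.89 in CD11b+ DC (3.41-fold, log2 difference 1.77 ± 0.15, adjusted p = 7.43e-05), *Hpgds*, the hematopoietic prostaglandin D synthase, was 2.95-fold higher in RM (log2 difference 1.56 ± 0.24, adjusted p = 0.00241), and *Hpgd*, which inactivates prostaglandins, was at 8.002, 8.90 and 8.42 in RM and 6.74 and 6.79 in CD11b+ DC (3.20-fold, log2 difference 1.68 ± 0.24, adjusted p = 0.00163). Of the leukotriene genes, *Lta4h*, which makes leukotriene B4, was higher in CD11b+ DC, at 8.31, 7.93 and 7.85 in RM and 9.56 and 9.49 in CD11b+ DC (2.82-fold, log2 difference -1.49 ± 0.13, adjusted p = 9.48e-05), and *Alox5ap*, the partner of 5-lipoxygenase, 2.22-fold (log2 difference -1.15 ± 0.21, adjusted p = 0.00743). *Alox5ap* was lost without CD11b+ DC replicate 1 (adjusted p = 0.0670) or 2 (0.0592), which each left 1 of the 4 CD11b+ DC calls. *Hpgds* and *Alox5ap* were not called with the 5 WT samples alone (adjusted p = 0.0604 and 0.0515).

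The receptors for TGF-beta, a signal needed for maturation of gut macrophages and DC, were higher in RM, as were parts of the Notch pathway. *Tgfbr1* was at 10.42, 10.95 and 11.03 in RM and 8.80 and 8.64 in CD11b+ DC (4.23-fold, log2 difference 2.08 ± 0.18, adjusted p = 9.44e-05) and *Tgfbr2* at 10.24, 10.32 and 10.45 in RM and 9.25 and 8.87 in CD11b+ DC (2.42-fold, log2 difference 1.28 ± 0.17, adjusted p = 9.66e-04). *Smad4*, the shared partner of the receptor-regulated Smads, was higher in CD11b+ DC, at 9.91, 10.22 and 10.41 in RM and 10.88 and 11.25 in CD11b+ DC (1.85-fold, log2 difference -0.89 ± 0.17, adjusted p = 0.0104). Of the 17 genes in that list, 3 were higher in RM and 1 in CD11b+ DC (median 0.26). Of 20 Notch genes, 3 were higher in RM and 1 in CD11b+ DC (median 0.12): *Notch1* at 9.12, 9.69 and 9.45 in RM and 8.56 and 8.05 in CD11b+ DC (2.17-fold, log2 difference 1.12 ± 0.18, adjusted p = 0.00338), its target *Hes1* at 8.12, 9.70 and 9.25 in RM and 7.49 and 6.68 in CD11b+ DC (3.83-fold, log2 difference 1.94 ± 0.37, adjusted p = 0.00977), *Dtx4*, a ubiquitin ligase of the pathway (3.98-fold, log2 difference 1.99 ± 0.18, adjusted p = 1.09e-04), and the ligand *Dll4* in CD11b+ DC (log2 difference -0.55 ± 0.14, adjusted p = 0.0392). *Smad4*, *Hes1* and *Dll4* were lost without CD11b+ DC replicate 2 (adjusted p = 0.128, 0.123 and 0.360). *Dll4* was also lost without RM replicate 1 (0.0797) or 3 (0.131) and with the litter as a block (0.106). *Smad4*, *Notch1*, *Hes1* and *Dll4* were not called with the 5 WT samples alone (adjusted p = 0.0985, 0.0854, 0.144 and 0.223). The CD11b+ DC count of the Notch list was 3 without RM replicate 2, beside 4 in RM, and 0 without RM replicate 1, RM replicate 3 or CD11b+ DC replicate 2.

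*Runx3* was at 9.83, 9.48 and 9.76 in RM and 10.11 and 9.99 in CD11b+ DC (log2 difference -0.36 ± 0.14, adjusted p = 0.185) and was not called, and *Runx1* and *Cbfb*, its paralogue and its DNA-binding partner, differed by -0.09 ± 0.16 and -0.24 ± 0.12. *Cbfa2t3*, a corepressor gene of the same list, was at 6.94, 7.21 and 7.23 in RM and 9.02 and 8.66 in CD11b+ DC (3.28-fold higher in CD11b+ DC, log2 difference -1.71 ± 0.16, adjusted p = 1.07e-04).

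Markers of other cell types were measured beside these results. The mean log2 level over 15 genes of T, NK and innate lymphoid cells was 5.56 to 6.12 in RM and 6.07 to 6.16 in CD11b+ DC, and the T cell receptor gene *Cd3d* was under 5 in all 5 samples. Of these 15 genes, 7 had higher and 8 lower levels in RM (median -0.13), and 2 were called, both higher in CD11b+ DC. From that list *Klrk1* (NKG2D) was at 6.44, 6.67 and 6.83 in RM and 9.20 and 9.62 in CD11b+ DC (6.77-fold higher in CD11b+ DC, log2 difference -2.76 ± 0.41, adjusted p = 0.00210). *Klrd1*, described above, is not in it. *Il7r*, an IL-7 receptor chain gene, was also higher in CD11b+ DC (log2 difference -0.77, adjusted p = 0.0143). It was not called with the 5 WT samples alone (adjusted p = 0.0624). The NK cell genes *Gzma*, *Ncr1* and *Nkg7* differed by -0.89, -0.13 and -0.26 and were not called. Over 13 B and plasma cell genes the mean level was 9.47, 8.61 and 8.18 in RM and 8.28 and 7.62 in CD11b+ DC, highest in RM replicate 1. *Ms4a1* (CD20) was at 10.36, 9.22 and 8.60 in RM and 8.74 and 7.70 in CD11b+ DC and *Cd79b* at 9.99, 9.04 and 9.0004 in RM and 8.40 and 7.68 in CD11b+ DC, the list's only call (log2 difference 1.30 ± 0.31, adjusted p = 0.0302), which was lost with the litter as a block (adjusted p = 0.0657) and without CD11b+ DC replicate 2 (0.281). *Ly6d*, a lymphoid gene of the plasmacytoid DC list, was at 9.17, 8.53 and 7.64 in RM and 7.26 and 6.47 in CD11b+ DC (log2 difference 1.58 ± 0.42, adjusted p = 0.0498). That p was 0.0568 with the litter as a block and 0.0812 to 0.359 without RM replicate 1 or 2 or either CD11b+ DC sample. *Ly6d* moved with these B cell genes over the 5 samples, and the part of B cell RNA in its value was not tested. Of 18 epithelial genes, 15 had higher levels in RM and 3 in CD11b+ DC (median 0.23), of which 1 and 2 were called. Over all 19938 genes, 10429 had higher levels in RM. *Car1*, a carbonic anhydrase of colon epithelium, was at 9.57, 9.33 and 8.74 in RM and 6.69 and 6.95 in CD11b+ DC (5.25-fold higher in RM, log2 difference 2.39 ± 0.46, adjusted p = 0.00945). *Cdh1* and *Epcam* were higher in CD11b+ DC, and *Muc2*, *Krt20* and *Vil1* were not called. The list mean was 5.36 to 5.79 in RM and 5.23 to 5.45 in CD11b+ DC. *Car1* was lost without CD11b+ DC replicate 1 (adjusted p = 0.0876) or 2 (0.0592), and *Epcam* without CD11b+ DC replicate 2 (0.0829). Of 16 stromal genes, 14 had higher levels in RM and 2 in CD11b+ DC (median 0.19), and 3 were called, all higher in RM. They were led by *Col14a1* (3.10-fold, log2 difference 1.63 ± 0.18, adjusted p = 3.77e-04) and *Fap* (log2 difference 1.08 ± 0.12, adjusted p = 3.55e-04). The third, *Tagln* (log2 difference 0.47, adjusted p = 0.0422), was lost without RM replicate 1 (0.0840) and with the 5 WT samples alone (0.124). *Col1a1*, *Col3a1* and *Dcn* were not called and differed by 0.08 to 0.26. None of 12 endothelial genes and 1 of 19 granulocyte and mast cell genes, *Csf3r*, was called, and the neutrophil genes *Ngp* and *S100a8* were under 5 in all 5 samples. Among endothelial genes 1 was higher in RM with the litter as a block or without CD11b+ DC replicate 1, 2 were higher in CD11b+ DC without CD11b+ DC replicate 2, and 1 granulocyte or mast cell gene was higher in CD11b+ DC without CD11b+ DC replicate 1. *Cd79b*, *Ly6d* and *Epcam* were not called with the 5 WT samples alone (adjusted p = 0.183, 0.202 and 0.125). The B and plasma cell list had 2 calls without RM replicate 3.

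Of 25 cell cycle genes, 22 had lower levels in RM and 3 of them were called (median -0.41), with a list mean of 7.55, 6.81 and 6.72 in RM and 7.64 and 7.45 in CD11b+ DC. Over all 19938 genes, 9509 had lower levels in RM. *Kif23*, a kinesin of cell division, was at 7.58, 7.33 and 6.73 in RM and 8.52 and 8.18 in CD11b+ DC (log2 difference -1.14 ± 0.23, adjusted p = 0.0122), and *Top2a*, the topoisomerase of dividing cells, at 8.77, 7.75 and 7.28 in RM and 9.21 and 8.87 in CD11b+ DC (adjusted p = 0.0785, and 7.56e-04 without RM replicate 1). RM replicate 1 lay nearer to the CD11b+ DC than the other RM samples, and 13 of the 25 were called without it, against 1 without RM replicate 2 or 3 or CD11b+ DC replicate 2, 0 without CD11b+ DC replicate 1 and 1 with the litter as a block. Without CD11b+ DC replicate 1, *Kif23* had an adjusted p of 0.131. Of 24 immediate-early and dissociation stress genes, which rise during digestion of tissue, 13 had higher and 11 lower levels in RM (median 0.04). Called were 2, both higher in CD11b+ DC, and 3 with the litter as a block. The 2 were *Nr4a2*, an orphan nuclear receptor, at 10.42, 10.55 and 10.19 in RM and 12.15 and 12.01 in CD11b+ DC (3.23-fold, log2 difference -1.69 ± 0.15, adjusted p = 9.48e-05) and *Egr3* (log2 difference -0.98 ± 0.21, adjusted p = 0.0193). *Egr2* differed by -0.96 and was not called (adjusted p = 0.148), but passed with the litter as a block (0.0394). *Fos*, *Jun*, *Egr1* and *Hspa1a* differed by 0.16, -0.07, 0.25 and 0.18 and were not called. *Egr3* was lost without CD11b+ DC replicate 1 (adjusted p = 0.206) or RM replicate 3 (0.0720), and 1 stress gene, *Dusp2*, was higher in RM with the litter as a block (0.0267). Of 25 type I interferon genes, 2 were higher in RM (8%, against 4.27% of all genes, median 0.45). They were *Oas2*, at 7.76, 8.39 and 8.31 in RM and 6.97 and 7.58 in CD11b+ DC (log2 difference 0.88 ± 0.21, adjusted p = 0.0312), and *Bst2* (log2 difference 0.63 ± 0.16, adjusted p = 0.0395). This count was 5 with the litter as a block, 3 without RM replicate 1, 1 without RM replicate 2 or CD11b+ DC replicate 2 and 0 without RM replicate 3 or CD11b+ DC replicate 1 (adjusted p up to 0.294 for *Oas2* and 0.288 for *Bst2*). *Kif23*, *Egr3*, *Oas2* and *Bst2* were not called with the 5 WT samples alone (adjusted p = 0.123, 0.0972, 0.204 and 0.0774). *Bst2* was also lost without RM replicate 1 (adjusted p = 0.0618).

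**Figure D4:**
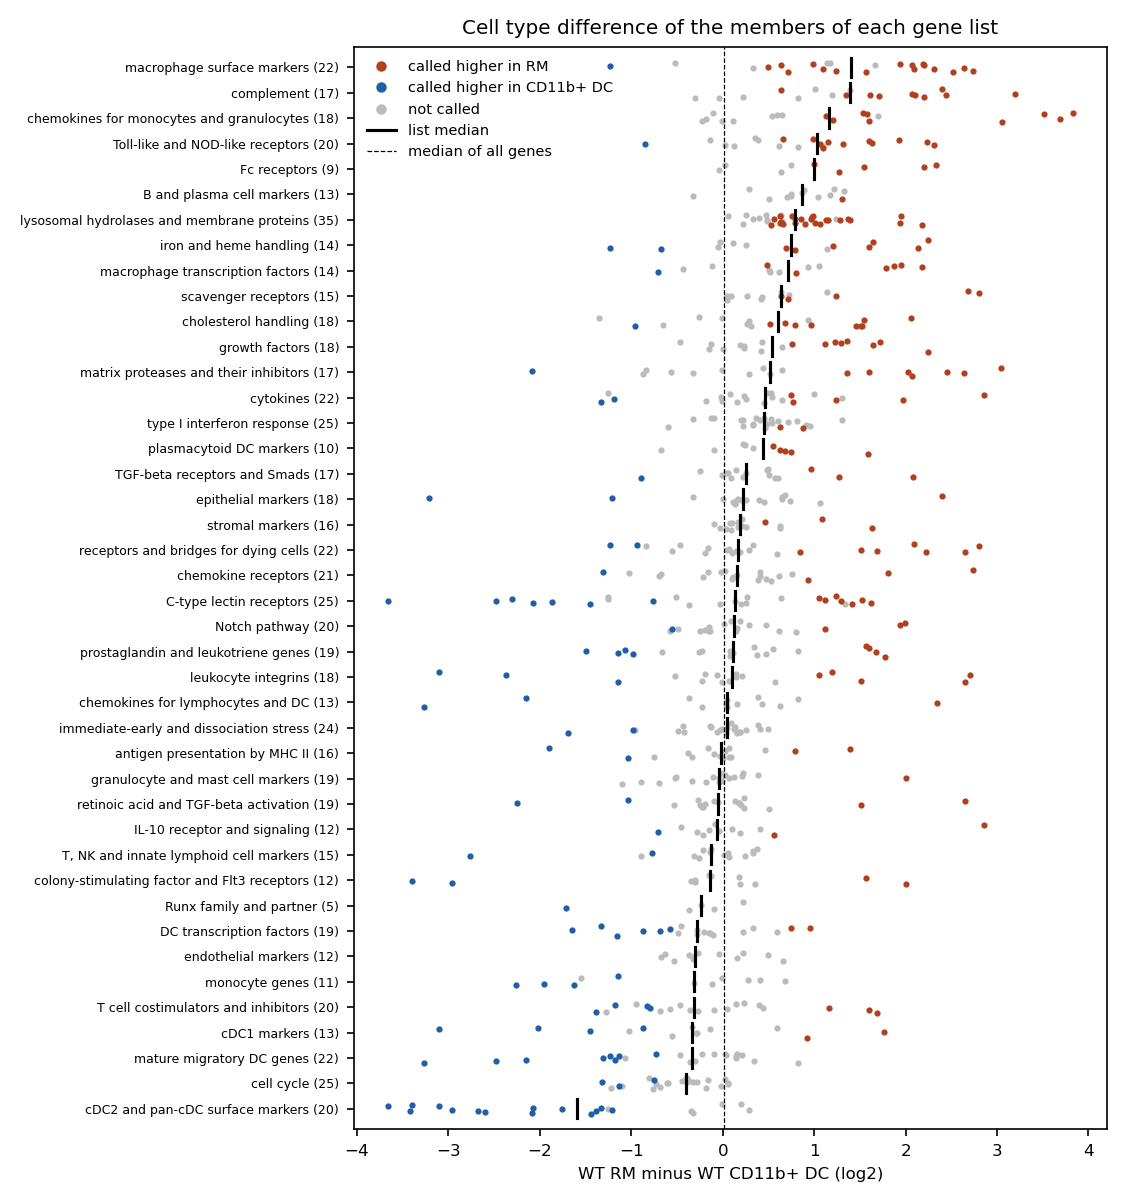
Each row is 1 of 42 gene lists. Points are its measured genes by their WT RM minus WT CD11b+ DC difference (log2, x axis), red and blue where called higher in RM and in CD11b+ DC, and the black mark is the list's median. Macrophage surface, complement, Fc receptor and lysosomal genes lie to the right with medians of 0.79 to 1.41. In the same range are chemokines for monocytes and granulocytes (1.17), Toll-like and NOD-like receptors (1.03) and B and plasma cell markers (0.86). The cDC2 surface genes lie farthest to the left with a median of -1.60.

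The RM samples differed widely among themselves in some genes, of which 6 named ones were picked for that spread after their values were seen. *Cd163*, the hemoglobin scavenger receptor, was at 6.31, 9.26 and 7.48 in RM and 6.85 and 6.22 in CD11b+ DC, and *Lyve1*, a hyaluronan receptor, at 6.08, 8.75 and 7.85 and 5.94 and 5.87. Neither was called (adjusted p = 0.410 and 0.141), but both passed without RM replicate 1 (0.0466 and 0.00146). *Folr2*, the folate receptor of resident macrophages, was at 7.48, 9.36 and 8.44 in RM and 6.06 and 5.77 in CD11b+ DC (5.71-fold, log2 difference 2.51 ± 0.41, adjusted p = 0.00387) and *F13a1*, the clotting factor XIII A chain, at 8.27, 10.28 and 8.61 in RM and 9.17 and 8.38 in CD11b+ DC (adjusted p = 0.900). *Folr2* was not called with the 5 WT samples alone (adjusted p = 0.0864). In these 4 genes RM replicate 2 was the highest sample and RM replicate 1 the lowest of the RM samples. *Trem1*, an amplifier of inflammatory signals, ran the other way, at 11.01, 8.52 and 9.35 in RM and 9.29 and 9.38 in CD11b+ DC, and *Hp*, the haptoglobin gene of monocytes and neutrophils, was at 7.19, 4.84 and 5.21 in RM and 4.74 and 5.39 in CD11b+ DC. RM replicate 1 was the highest of the 5 samples in both. *Cd4* and *Timd4* are also known from long-lived macrophages. *Timd4*, at 8.44, 8.99 and 8.67, had the same order among the RM samples. *Cd4*, at 11.21, 11.68 and 11.81, was highest in RM replicate 3.

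The same cell type difference was measured in the 4 RM and 3 CD11b+ DC samples of Runx3-cKO mice, which share litters and the estimate of the spread with the WT samples but no array. There 2108 genes were called (10.6% of 19938). Of the 1684 genes called in WT, 1665 (98.9%) had the same direction in Runx3-cKO, against 70.7% of all genes, and 1289 (76.5%) were called the same way, which was 61.1% of the Runx3-cKO calls. Counted over rows, 2791 were called in Runx3-cKO, and 1562 without Runx3-cKO CD11b+ DC replicate 2. All 30 of the largest WT differences were called the same way, among them *Pf4* at 4.27, *Ccl12* at 2.48, *Klrd1* at -3.77 and *Cd209a* at -3.42. The difference between the Runx3-cKO and WT comparisons was called for 0 rows by limma (lowest adjusted p = 0.83, 1391 rows or 3.91% at an unadjusted p under 0.05), so no gene is said here to part the cell types differently without *Runx3*. Side by side, *Fn1*, a monocyte-list gene for fibronectin, was at 9.91, 11.78 and 10.62 in RM and 12.59 and 12.05 in CD11b+ DC in WT with a difference of -1.55 ± 0.62 and had 0.21 in Runx3-cKO. *F13a1* had 0.27 ± 0.56 and 2.20, *Pdcd1lg2* -1.38 ± 0.25 and -0.24, *Cxcl13* 2.34 ± 0.53 and 0.31, and *Car1* 2.39 ± 0.46 and 0.88. These genes are shown for their wide gaps between the comparisons, and none of the gaps was called by limma. Of the called genes, 1 was called in the opposite direction in Runx3-cKO, *A830035O19Rik*, at -0.40 in WT and 0.33 in Runx3-cKO, an unnamed transcript picked out after its values were seen.

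**Figure D5:**
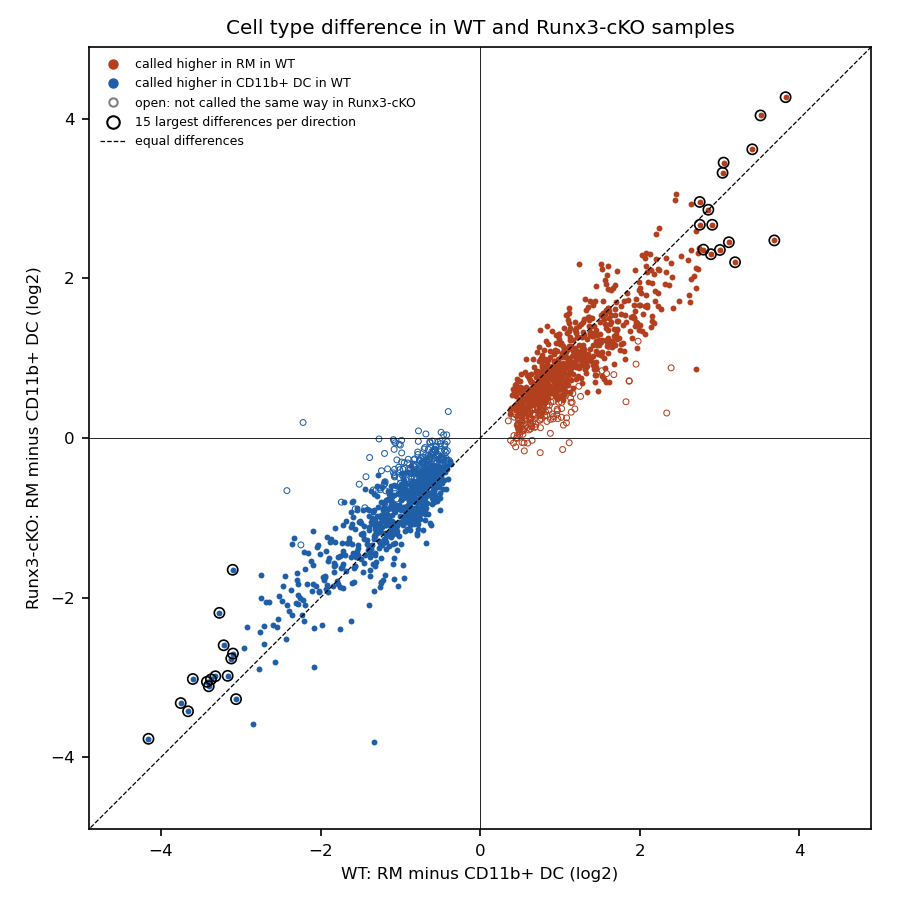
Each point is 1 gene called in WT, with its WT RM minus WT CD11b+ DC difference (log2) on the x axis and the same difference between Runx3-cKO samples on the y axis. Points are red where higher in RM, blue where higher in CD11b+ DC, open where not called the same way in Runx3-cKO, with black rings around the 30 largest, and the dashed line marks equal differences. Of the 1684 called genes, 1665 lie in the quadrants of equal sign.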

How the data were processed

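RNA of sorted cecal RM and CD11b+ DC was labeled and hybridized to Affymetrix mouse arrays, and the authors normalized the scans in Partek by RMA with a GC correction (genome build mm9 per the labels). The deposited values are log2 intensities per row and were used as deposited. The methods name an exon array and the rows match the annotation of a gene-level array, which was used to name them. Of 35556 rows, 21789 carry 1 gene symbol, 1621 several and 12146 none, of which 6617 lead the table. Where a gene had several rows, the one with the highest mean over the 12 samples stood for it. Rows combine probes along a gene, so that isoforms are not told apart. With 5 arrays the number of samples sets how precise a value can be.

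All 12 samples were fitted as 4 groups that share 1 estimate of the spread with limma 3.58.1 (lmFit, eBayes) in R 4.3.3 (statmod 1.5.0 served the random block), and the contrast of WT RM with WT CD11b+ DC was tested with Benjamini-Hochberg adjustment over all rows. The fit was checked on simulated data. Figures were drawn with Python 3.11.15, pandas 2.3.3, numpy 2.4.6 and matplotlib 3.10.9. The labels give no separate cultures beyond the pools, so p-values measure the spread between these pools. The comparison and the 42 gene lists (698 genes, 41 without a row of their own) were chosen with earlier results of these data known. Lists are described by counts and medians, with no test. Named were the 15 largest differences per direction among called genes with groups apart (predicted genes, receptor segments and small RNAs left out), the 6 members of each list with the lowest p, all members of the 7 identity lists, the sort genes and *Runx3*. The sex-linked and sample-specific genes, the uncalled defining markers *Siglech*, *Ncr1*, *Nkg7*, *Muc2*, *Krt20*, *Vil1*, *Col1a1*, *Col3a1*, *Dcn*, *Fos*, *Jun*, *Egr1* and *Hspa1a*, and *A830035O19Rik* stand outside this rule and were named after their values were seen.

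The pairing comes from the labels, which give a litter to each sample. After removal of the group means, the 13 pairs of samples of one litter correlated at -0.0026 to 0.507 over the rows with 1 gene symbol. The WT pairs had 0.261 (litter 2) and 0.286 (litter 3), and these are not independent, since the deviations of 2 CD11b+ DC samples mirror each other. The litter as a fixed or random block, the 5 WT samples alone, an intensity trend with a robust prior, the methods' analysis of variance without moderation, a filter at log2 5, quantile normalization, median centring, other rules for rows of 1 gene, removal of the leading rows and leaving out each sample were tried as alternatives. The counts of list calls with 1 sample left out were added after the data were seen. Chromatin, flow cytometry and PCR data were not analysed here.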

Additional observations from a re-analysis of the deposited data

How the results depend on the processing

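Over the 23 alternatives, 119 of the 195 called genes among 313 named passed every time, and no named gene changed direction. The largest loss came from fitting the 5 WT samples alone, where 883 rows were called (436 higher in RM, 447 in CD11b+ DC) and 63 named genes were lost. Fewer samples then estimate the spread. Leaving out 1 sample gave 1020 to 2611 called rows in all, 428 to 1294 higher in RM and 481 to 1317 in CD11b+ DC, and 1562 to 3320 for Runx3-cKO. With 1 CD11b+ DC sample left, its spread is assumed to be that of the other groups. The litter as a fixed replicate block called 2353 rows and as a random block 2303. Beside the genes and lists given with their blocked values, it took 6 more named calls, *Bub1*, *Cox6a2*, *Cxcr3*, *Etv6*, *Tagln* and *Tyms*, added *Ddx60*, *Mitf*, *Oasl1*, *Pecam1* and *Pparg*, and changed no other named call. Other settings called 1833 (median centring) to 2472 rows (without the leading unnamed rows), the methods' analysis of variance 1645 after adjustment, and the methods' thresholds of 1.5-fold and p up to 0.05 gave 3028 rows in this fit. Of 714 recomputed list medians, 56 moved by more than the SD between replicates.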
